A study of Rattus norvegicus with 24 samples.

Results

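Ion channels are membrane proteins that let potassium, sodium, calcium or chloride cross a membrane, and their order of opening shapes the heartbeat. In a ventricular muscle cell, sodium channels start the action potential, L-type calcium channels hold it and trigger contraction, and several potassium channels end it. In the rat ventricle a large transient outward potassium current, carried by the Kv4 channels, ends it early. Most channels are built from a pore subunit and auxiliary subunits that change how many channels reach the membrane and how they open.

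Described here are the potassium, sodium, calcium and chloride channel genes and the TRP (transient receptor potential) cation channel genes of rat myocardium. With earlier results of these data known, they were chosen by gene symbol. The rule took all Kcn, Scn, Cacn, Clcn, Trpc, Trpm and Trpv genes of the deposited tables other than Kcnk3, Kcnj3 and Kcnj5. The rule found 65 genes, of 10797 genes in any of the 4 tables, and 58 of the 65 were in every table, of 10129 genes that were. By role they are 15 voltage-gated potassium (Kv) pore genes, 4 Kv auxiliary genes, 6 inward rectifiers, 2 two-pore-domain potassium channels, 5 genes of calcium-activated potassium channels, 6 sodium pore genes, 3 sodium beta subunits, 5 calcium pore genes, 4 calcium auxiliary genes, 7 CLC genes and 7 TRP genes. The remaining gene, Trpc4ap, matches the symbol pattern but encodes a protein that associates with TRP channels and is not a channel.

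All rats were Sprague-Dawley. In the MR groups the left chest was opened and a mitral leaflet perforated, which causes mitral regurgitation (MR), a leak that returns blood to the left atrium and loads the ventricle with volume. Myocardium was taken 2 weeks (n = 4 libraries), 10 weeks (n = 5), 20 weeks (n = 5) or 40 weeks (n = 5) after this surgery. Sham rats had the surgery with the leaflet left intact, and their myocardium was taken at 2 weeks (n = 5). The labels say nothing of age, sex or heart chamber, and nothing states that each library is a separate animal. Sham libraries exist for 2 weeks only, so at 10, 20 and 40 weeks MR cannot be told apart from time since surgery and age.

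Levels are normalised read counts, which are gene read counts divided by a single factor for each library and not by gene length, so levels are compared between groups and never between genes. Libraries held 7.69 to 12.1 M reads on listed genes. The tables list only genes with at least 1 read in every library of the table. Each MR time was tested against Sham with limma on log2(value + 1), with Benjamini-Hochberg adjustment over all tested genes and an adjusted p threshold of 0.05. A log2 fold change is on this log2(value + 1) scale, which makes the change of low genes look smaller than it is. Means are given ± SD over the libraries of a group, and log2 fold changes with their SE.

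Of 12 cardiomyocyte markers, 11 were in every table, and the other, Ttn, was not listed. Being listed does not identify the tissue, since all 11 fibroblast and all 10 endothelial markers were listed too. At 40 weeks the summed level of the 11 cardiomyocyte markers was 39330 to 56634 in MR and 46866 to 67100 in Sham, with 2 of the 11 genes higher and 4 lower. Replicate 1 of MR 2 weeks stood apart for 6 channel genes, so differences at 2 weeks and calls lost without that library are also given without it. In bulk tissue, fewer cells of a type and less RNA per cell cannot be told apart.

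At 40 weeks 29 of the 57 tested channel genes passed the test against Sham, 17 higher and 12 lower in MR. That is 29.8% higher and 21.1% lower, where 16.3% of all 10094 tested genes were higher and 30.9% lower. The median log2 fold change of the 57 was 0.13 and that of all tested genes was -0.15, and 63.2% of the channel genes lay above 0, against 38.8% of all genes. At 2, 10 and 20 weeks none of 56, 58 and 56 tested channel genes passed, and edgeR and DESeq2 on recovered reads also called 0 at each of these times. For all genes the share that passed was 0% in both directions at 2 weeks, 0.158% higher and 0.0099% lower at 10 weeks, and 0.0698% higher and 0% lower at 20 weeks.

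**Figure D1:**
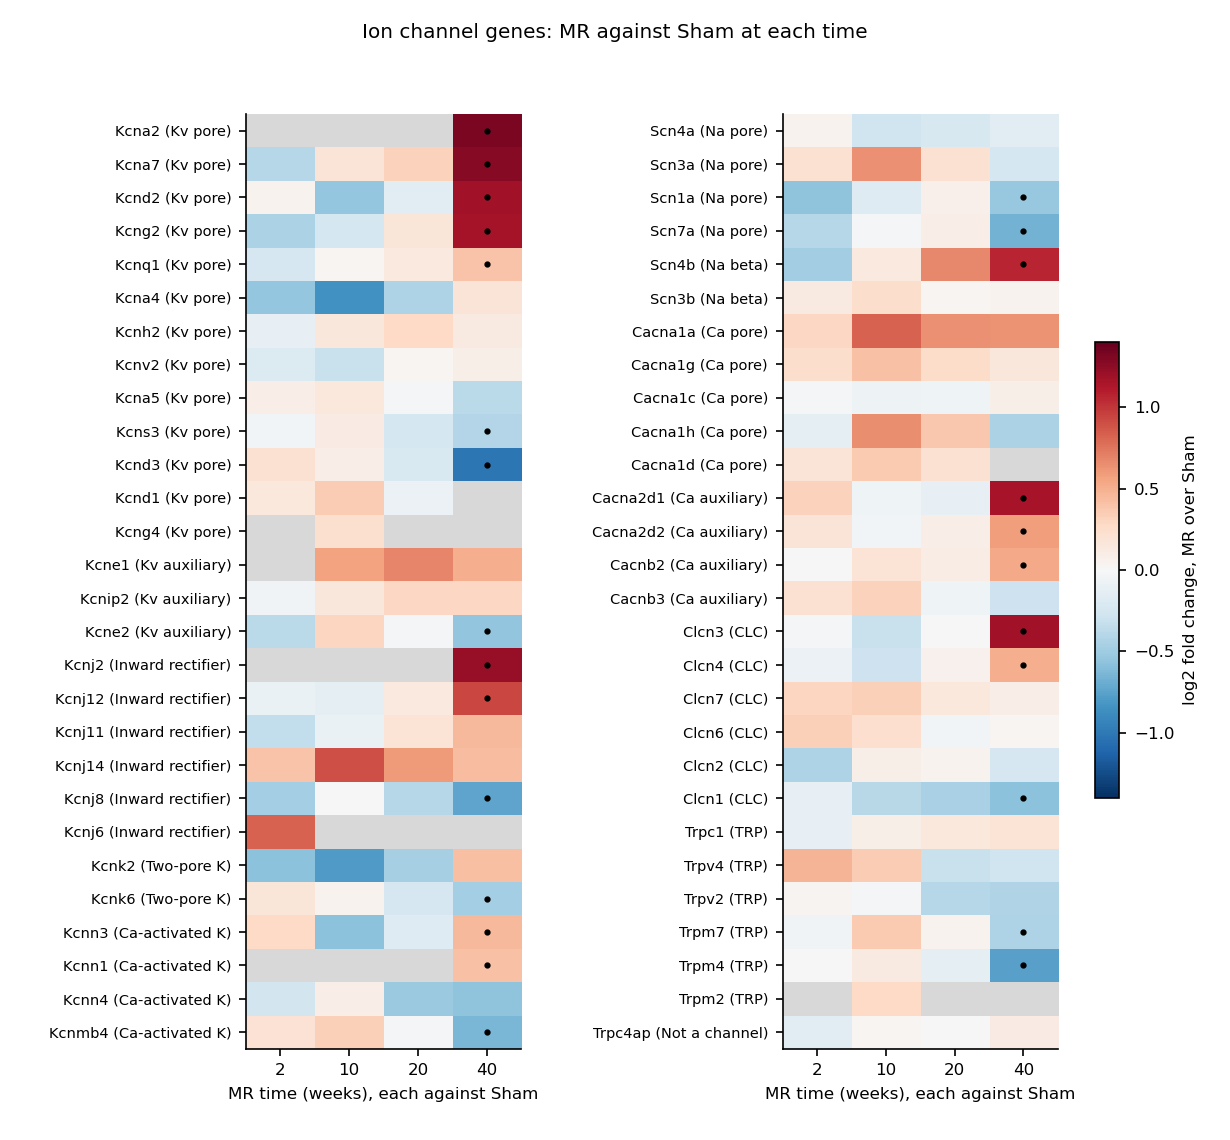
Log2 fold change on the log2(value + 1) scale of 56 channel genes (rows, with their roles) in MR at 2, 10, 20 and 40 weeks (columns), each against Sham. Dots mark genes with an adjusted p under 0.05, grey marks genes not tested at that time, and the dots, 15 on red and 11 on blue cells, stand in the 40 week columns only.

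The split depended on how libraries were scaled. With libraries rescaled by the median of ratios, which moved the median of all genes at 40 weeks to -0.01, 22 channel genes were higher and 6 lower, so that 78.6% of the calls were higher, against 58.6% with the deposited scaling. The calls over all genes moved too, with 52.1% of them higher after rescaling, against 34.5% with the deposited scaling. Genes gained as higher included Cacna1a, Kcnj11 and Trpc4ap, and the 6 lost as lower were Clcn1, Kcnk6, Kcns3, Scn1a, Scn7a and Trpm7. Whether the groups of a single gene overlapped is given below with the deposited scaling and also depended on it.

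The Kv4 pore genes of the transient outward current moved in opposite directions at 40 weeks. Kcnd2 (Kv4.2), at rn6 chr4:48309283-48816801 (plus strand), had normalised read counts of 4.89, 7.22, 4.72, 8.66 and 2.04 in MR 40 weeks, against 2.15, 1.31, 1.22, 1.22 and 2.85 in Sham. All MR libraries but replicate 5 lay above the highest Sham library, and the log2 fold change was 1.17 (SE 0.27, adjusted p = 0.00332). Kcnd3 (Kv4.3), at rn6 chr2:207923775-208140728 (plus strand), had 15, 16.4, 17.7, 14.8 and 11.2 in MR 40 weeks, against 34.9, 36.5, 41.3, 24.3 and 22.6 in Sham. Here every MR library was below every Sham library, and the log2 fold change was -1.02 (SE 0.18, adjusted p = 0.000584). Both calls held without each library in turn and under each other setting that could test the gene, which for Kcnd2 leaves out the mean of at least 10.

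Promoter sequences are shown for these Kv4 genes because the pair moved in opposite directions. They are RefSeq windows of 300 bases around the annotated start, 5′ to 3′ on the gene's strand, from build GRCr8, which differs from the build of the tables. Kcnd2 lies at chr4:50742235-50742534, plus strand, and Kcnd3 at chr2:195626066-195626365, plus strand. Capitals mark matches on either strand to the 2 motifs searched, which cannot overlap. The GC box was spelled GGGCGG and was in 33.1% of all 33469 promoters of the table. The TATA box was spelled TATAAA and was in 14.2% of them.
Kcnd2: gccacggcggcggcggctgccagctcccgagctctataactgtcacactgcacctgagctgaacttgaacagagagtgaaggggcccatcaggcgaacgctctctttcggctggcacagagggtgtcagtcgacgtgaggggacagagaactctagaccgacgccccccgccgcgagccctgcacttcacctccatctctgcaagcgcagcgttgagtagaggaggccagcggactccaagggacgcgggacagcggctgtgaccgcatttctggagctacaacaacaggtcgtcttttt
Kcnd3: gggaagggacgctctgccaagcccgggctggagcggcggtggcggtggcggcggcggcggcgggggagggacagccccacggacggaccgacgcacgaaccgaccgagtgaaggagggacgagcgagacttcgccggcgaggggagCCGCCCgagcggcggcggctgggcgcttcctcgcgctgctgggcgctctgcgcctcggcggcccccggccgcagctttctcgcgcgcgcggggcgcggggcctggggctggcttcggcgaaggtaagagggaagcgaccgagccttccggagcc
The Kcnd3 window held 1 GC box and the Kcnd2 window neither motif, and the GC content was 77.7% for Kcnd3 and 61.7% for Kcnd2. Windows were available for 44 of the 65 channel genes (50 promoters, some genes having several), of which 54% held a GC box and whose median GC content was 62.7%, against 51.7% over all promoters. These matches describe the letters of the window and were not tested.

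The ratio of Kcnd2 to Kcnd3 reads within a library, which does not depend on how libraries are scaled, was 0.181 to 0.585 in MR 40 weeks, against 0.0296 to 0.126 in Sham. The groups did not overlap. Since gene length is not taken out, the size of the ratio cannot be read as a balance of channels, only its difference between libraries. Kcnip2 encodes KChIP2, the auxiliary subunit of Kv4 channels, and its level was 371 ± 93.7 in MR and 303 ± 81.2 in Sham, a difference that did not pass (0.29 (adjusted p = 0.317)). Per read of Kcnd2 there were 47.8 to 105 reads of Kcnip2 in MR 40 weeks, against 142 to 257 in Sham. These ratios were chosen after the values were seen and are given without a test.

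**Figure D2:**
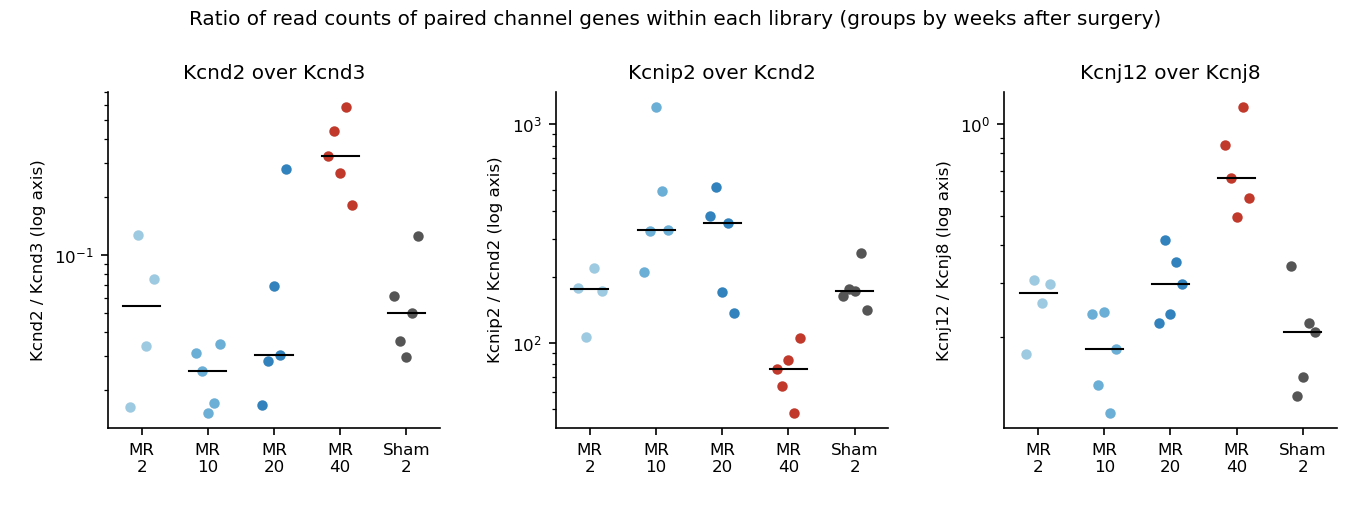
Ratio of the read counts of Kcnd2 to Kcnd3 (left), Kcnip2 to Kcnd2 (middle) and Kcnj12 to Kcnj8 (right) in each library (points, log axis), with the group median as a bar, for MR at 2, 10, 20 and 40 weeks and Sham at 2 weeks. At 40 weeks the MR libraries do not overlap with Sham in any of the 3 ratios, as in the Kcnj12 to Kcnj8 ratios of 0.496 to 1.13 in MR and 0.128 to 0.343 in Sham.

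Among the delayed rectifier genes, whose channels open more slowly and help to end the action potential, several were higher at 40 weeks. Kcna2 (Kv1.2), at rn6 chr2:209839418-209843549 (plus strand), had 2.95, 2.44, 1.72, 3.73 and 3.78 in MR 40 weeks, against 0.607, 0.568, 0.255, 0.586 and 0.737 in Sham. The groups were fully separate, and the log2 fold change was 1.32 (SE 0.18, adjusted p = 0.000197). At 40 weeks Kcna2 reached the 31 reads needed for listing in MR libraries only (93 at most). It was thus listed only through the group where it was higher. Kcng2 encodes Kv6.2, a subunit that forms no channel of its own and joins other Kv pores, and it averaged 99.2 ± 13.8 in MR and 47 ± 19.4 in Sham without overlap (1.17 (adjusted p = 0.00261)).

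Kcna7 (Kv1.7) averaged 7.42 ± 1.35 in MR and 2.72 ± 1.52 in Sham at 40 weeks, and all 5 MR libraries exceeded all 5 Sham libraries (1.27 (adjusted p = 0.00131)). Kcnq1, the pore of the slow delayed rectifier, had 32.9, 33.6, 30.9, 37.9 and 26.5 in MR 40 weeks, against 25.6, 24.8, 17, 28.4 and 26.4 in Sham. Its groups overlapped and its call was narrow (0.40, SE 0.15, adjusted p = 0.0371). Without any 1 of replicates 1, 2 or 4 of MR 40 weeks or 2 or 3 of Sham, the adjusted p of Kcnq1 was 0.0573 to 0.0956.

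Other Kv pore genes were lower or did not pass. Kcns3, whose Kv9.3 protein also needs another Kv pore as a partner, averaged 2.59 ± 0.613 in MR and 3.72 ± 0.451 in Sham and was lower (-0.41 (adjusted p = 0.0344)), a call lost without any 1 of replicates 2, 4 or 5 of MR or 1, 3 or 5 of Sham (adjusted p 0.0596 to 0.0891) and under the rescaling. The Kcns3 call was also lost with edgeR, with DESeq2 and in a fit of all 24 libraries. Kcnh2, the pore of the rapid delayed rectifier, averaged 29.7 ± 3.93 in MR and 27.1 ± 3.34 in Sham (0.13 (adjusted p = 0.438)), and Kcna5 (Kv1.5) averaged 6.52 ± 0.451 in MR and 9.27 ± 3.27 in Sham (-0.38 (adjusted p = 0.151)). Kcnv2, a silent Kv8.2 subunit, averaged 1.57 ± 0.65 in MR and 1.39 ± 0.415 in Sham (0.09 (adjusted p = 0.738)). None of these last 3 passed. In all, 7 of 13 tested Kv pore genes were higher and 2 lower, where 16.3% of all tested genes were higher and 30.9% lower. Kcng4 and Kcnd1 (Kv4.1) had a mean below 1 in the 40 week table and were not tested against Sham there, with 0.971 ± 0.44 in MR and 0.814 ± 0.507 in Sham for Kcng4 and 0.518 ± 0.163 in MR and 1.37 ± 0.537 in Sham for Kcnd1. With edgeR and with DESeq2, which were run without that limit, Kcnd1 was lower. At 40 weeks Kcnd1 reached the 31 reads needed for listing in Sham libraries only (48 at most). It was thus listed only through the group where it was higher.

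Of the Kv auxiliary genes, Kcne2, a small subunit of several Kv channels, was lower at 40 weeks, with 0.925, 0.813, 0.862, 0.842 and 0.415 in MR and 2.1, 1.4, 2.45, 1.12 and 1.08 in Sham. Its groups did not overlap (-0.55 (adjusted p = 0.0218)), and without replicate 5 of MR or replicates 1 or 3 of Sham its adjusted p was 0.0517 to 0.0612. The call was also lost in a fit of all 24 libraries. At 40 weeks Kcne2 reached the 31 reads needed for listing in Sham libraries only (48 at most). It was thus listed only through the group where it was higher. Kcne1, the partner of Kcnq1, averaged 1.8 ± 2.13 in MR and 0.57 ± 0.325 in Sham (0.51 (adjusted p = 0.333)). Kcnab1, a beta subunit of Kv1 channels, was listed at 40 weeks only, with 1.06 ± 0.999 in MR and 0.709 ± 0.308 in Sham, and its mean was below the limit for testing.

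The inward rectifiers hold the resting potential of the muscle cell. Kcnj2 (Kir2.1), at rn6 chr10:99437635-99438919 (plus strand), had 2.73, 3.35, 1.68, 3.57 and 2.99 in MR 40 weeks, against 0.773, 0.306, 0.306, 0.692 and 1.23 in Sham. The groups did not overlap (1.22, SE 0.19, adjusted p = 0.000382). At 40 weeks Kcnj2 reached the 31 reads needed for listing in MR libraries only (89 at most). It was thus listed only through the group where it was higher. Kcnj12 (Kir2.2), at rn6 chr10:47282208-47341414 (plus strand), had 12.1, 10.2, 7.26, 12.1 and 10.1 in MR 40 weeks, against 5.08, 3.75, 3.37, 6.6 and 6.34 in Sham. It too was higher in every MR library than in any Sham library (0.93, SE 0.18, adjusted p = 0.00123). These Kir2 pores carry the classical inward rectifier current of ventricular muscle.

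The ATP-sensitive potassium channels have a Kir6 pore and a sulfonylurea receptor. Kcnj8 (Kir6.1), the pore known mainly from vascular smooth muscle and pericytes, at rn6 chr4:176783287-176789144 (minus strand), had 14.2, 15.5, 14.6, 10.7 and 17.7 in MR 40 weeks, against 14.8, 29.3, 22.7, 29.7 and 30.5 in Sham. Only replicate 1 of Sham lay within the MR range, and the gene was lower (-0.73, SE 0.19, adjusted p = 0.00658). Kcnj11 (Kir6.2), the pore known from ventricular muscle, averaged 117 ± 22.6 in MR and 85.6 ± 18.7 in Sham and did not pass with the deposited scaling (0.45 (adjusted p = 0.0533)), while the rescaled values gave 0.61 (adjusted p = 0.00633). Abcc9, a sulfonylurea receptor of these channels, was named after its values were seen: it averaged 102 ± 17 in MR and 73.1 ± 8.45 in Sham and was higher (0.47 (adjusted p = 0.0128)).

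Kcnj8 is also on the list of 8 pericyte markers. The summed level of that list was 272 to 322 in MR 40 weeks, against 266 to 317 in Sham, and 3 of the 8 were higher (Rgs5, Notch3, Abcc9) and 4 lower (Vtn, Kcnj8, Pdgfrb, Cspg4). The summed level of 8 smooth muscle markers was 1214 to 1726 in MR and 1150 to 1644 in Sham, with 0 higher and 1 lower of 8. The ranges overlapped for both lists.

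Promoters of Kcnj2 and Kcnj8 are shown since these inward rectifier genes moved in opposite directions, from the same RefSeq table and with matches to the same motifs in capitals. Kcnj2 lies at chr10:96559975-96560274, plus strand, and Kcnj8 at chr4:177246499-177246798, minus strand, on GRCr8.
Kcnj2: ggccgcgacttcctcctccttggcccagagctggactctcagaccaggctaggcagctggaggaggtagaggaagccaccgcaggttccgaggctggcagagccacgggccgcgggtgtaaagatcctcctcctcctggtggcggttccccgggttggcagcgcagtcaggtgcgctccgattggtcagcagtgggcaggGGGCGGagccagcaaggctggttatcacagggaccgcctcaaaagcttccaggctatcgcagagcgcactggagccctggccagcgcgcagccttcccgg
Kcnj8: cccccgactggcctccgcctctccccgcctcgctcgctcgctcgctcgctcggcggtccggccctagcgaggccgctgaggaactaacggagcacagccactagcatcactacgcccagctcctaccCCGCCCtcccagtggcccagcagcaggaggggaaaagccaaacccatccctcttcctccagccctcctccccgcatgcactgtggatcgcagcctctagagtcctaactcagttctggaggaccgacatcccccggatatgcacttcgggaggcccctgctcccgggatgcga
Each of these windows held 1 GC box and no TATA box, and both had a GC content of 67%.

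The other 2 inward rectifiers had no limma call at 40 weeks. Kcnj14 (Kir2.4) averaged 6.58 ± 6.01 in MR and 3.8 ± 1.33 in Sham (0.43 (adjusted p = 0.348)), with replicate 1 of MR far above the rest at 17.1. Kcnj6, a pore of G protein-gated channels, averaged 1.32 ± 0.486 in MR and 0.64 ± 0.383 in Sham and was under the limit for testing with limma, while DESeq2 called it higher (adjusted p = 0.0300) and edgeR did not (adjusted p = 0.0575). At 40 weeks Kcnj6 reached the 31 reads needed for listing in MR libraries only (48 at most). It was thus listed only through the group where it was higher. Of the two-pore-domain channels, which carry background potassium current, Kcnk6 (TWIK-2) averaged 4.08 ± 0.264 in MR and 6.07 ± 0.858 in Sham without overlap and was lower (-0.47 (adjusted p = 0.00682)). The Kcnk6 call was not made by edgeR, and under median-ratio scaling its difference was -0.34 (adjusted p = 0.0520). Kcnk2 (TREK-1), a stretch-sensitive channel, averaged 7.89 ± 1.44 in MR and 5.96 ± 2.75 in Sham (0.42 (adjusted p = 0.136)).

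Small-conductance calcium-activated potassium channels open when cell calcium rises. Kcnn3 (SK3) averaged 2.27 ± 0.288 in MR and 1.4 ± 0.367 in Sham and was higher (0.45 (adjusted p = 0.0205)), though not without replicate 5 of MR (adjusted p = 0.0516). Kcnn1 (SK1) averaged 1.34 ± 0.287 in MR and 0.766 ± 0.219 in Sham and was higher (0.41 (adjusted p = 0.0427)), a call lost without any 1 of replicates 1 to 3 of MR or 2 to 4 of Sham (adjusted p 0.0527 to 0.0974). The Kcnn1 call was also lost with library weights. Kcnn4, the intermediate-conductance channel, averaged 0.834 ± 0.44 in MR and 1.8 ± 1.12 in Sham and did not pass (-0.56 (adjusted p = 0.0849)). The beta 4 subunit gene of the large-conductance channel, Kcnmb4, averaged 0.708 ± 0.223 in MR and 1.68 ± 0.506 in Sham without overlap and was lower (-0.64 (adjusted p = 0.00688)). Its beta 1 counterpart Kcnmb1, a smooth muscle subunit, averaged 0.473 ± 0.324 in MR and 0.658 ± 0.793 in Sham and was not tested.

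**Figure D3:**
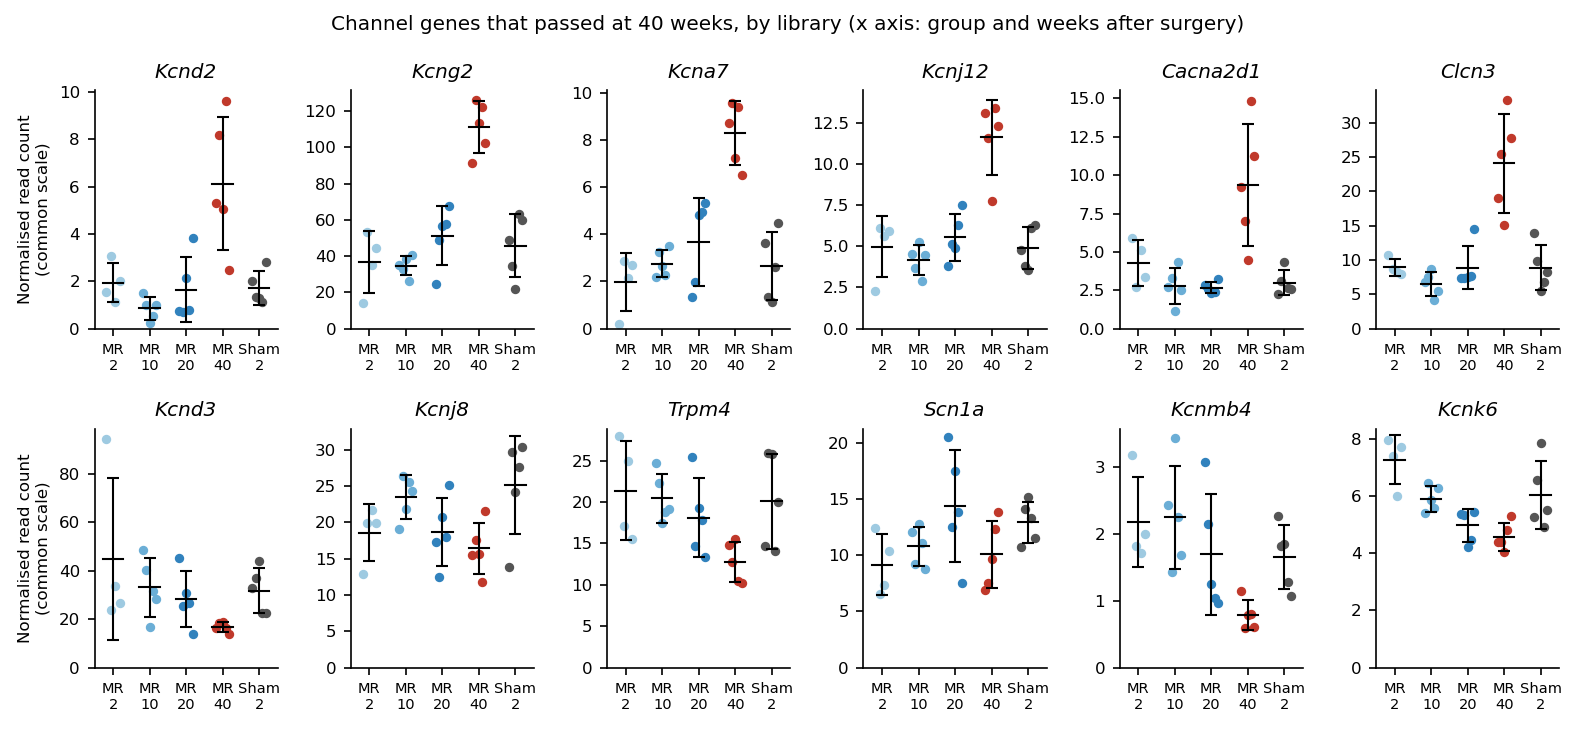
Normalised read counts on a common scale (median of ratios over the genes of all tables) of 12 channel genes that passed at 40 weeks, 6 higher (top) and 6 lower (bottom), for each library of MR at 2, 10, 20 and 40 weeks and Sham at 2 weeks. Points are libraries, bars are the mean and whiskers the SD, and each axis starts at 0. On this common scale Kcng2 averaged 111 ± 14.3 in MR 40 weeks and 45.7 ± 17.3 in Sham, and Kcnd3 averaged 16.8 ± 2.12 in MR 40 weeks and 31.8 ± 9.37 in Sham.

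Of the sodium channel pores, which start the action potential, 2 of 5 tested were lower at 40 weeks with limma, of which edgeR called 0 and DESeq2 called Scn7a. With limma 0 of the 5 were higher, while edgeR, DESeq2 and the rescaled values each called 1 higher. Over all genes tested with limma, 16.3% were higher and 30.9% lower. Scn1a (Nav1.1), best known from neurons, averaged 8.93 ± 2.39 in MR and 13.1 ± 1.47 in Sham without overlap and was lower (-0.53 (adjusted p = 0.0157)). Under median-ratio scaling its difference was -0.39 (adjusted p = 0.0833). Scn4a, the skeletal muscle pore, averaged 1.06 ± 0.347 in MR and 1.39 ± 1.0 in Sham (-0.15 (adjusted p = 0.601)), and Scn3a averaged 1.54 ± 0.088 in MR and 2.2 ± 1.27 in Sham (-0.25 (adjusted p = 0.383)). Scn2a was listed at 10 and 20 weeks only, where its means were below the limit for testing.

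Scn7a encodes Nax, a sodium-sensing relative of these pores known from mouse glia, and it is on the list of Schwann cell and nerve markers used here. It averaged 22.2 ± 4.22 in MR and 36.8 ± 13.3 in Sham and was lower (-0.66 (adjusted p = 0.0166)), and under median-ratio scaling its difference was -0.51 (adjusted p = 0.0720). Of the 11 Schwann cell and nerve markers 10 were listed (S100b was not), and their summed level was 36.8 to 72.5 in MR 40 weeks, against 43.3 to 123 in Sham, with 1 of 8 tested higher and 2 lower. The 11 fibroblast markers summed to 1696 to 2198 in MR and 2144 to 3573 in Sham, with 1 higher and 5 lower. Their part in the Scn7a result was not tested.

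Sodium channel beta subunits set the membrane level and gating of the pores. Scn4b had 126, 144, 119, 177 and 131 in MR 40 weeks, against 69.3, 40.5, 35.5, 97.1 and 123 in Sham. Replicate 3 of MR lay within the Sham range, whose highest library was replicate 5, and the gene was higher (1.07, SE 0.29, adjusted p = 0.0078). Scn3b averaged 2.39 ± 0.432 in MR and 2.34 ± 0.92 in Sham (0.05 (adjusted p = 0.823)).

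Of the calcium channel genes at 40 weeks, 3 of 4 auxiliary genes were higher and 0 of 4 tested pore genes passed with limma. Over all tested genes, 16.3% were higher and 30.9% lower. One pore gene, Cacna1a, had an unadjusted p under 0.05 and was called higher by edgeR and by DESeq2. Cacna1c (Cav1.2), the L-type pore of ventricular muscle, averaged 93 ± 13.8 in MR and 87.5 ± 11.6 in Sham (0.09 (adjusted p = 0.634)). The T-type pores Cacna1g and Cacna1h averaged 11.9 ± 4.71 in MR and 10.4 ± 3.85 in Sham for Cacna1g (0.16 (adjusted p = 0.604)) and 11.8 ± 7.03 in MR and 14.9 ± 4.65 in Sham for Cacna1h (-0.44 (adjusted p = 0.28)). Cacna1a, the P/Q-type pore known from nerve terminals, averaged 24.7 ± 7.72 in MR and 16.1 ± 5.46 in Sham (0.62 (adjusted p = 0.062)), and with rescaled values gave 0.77 (adjusted p = 0.0323). Cacna1d (Cav1.3), an L-type pore of atrial and pacemaker cells, averaged 0.594 ± 0.307 in MR and 0.921 ± 0.698 in Sham and was not tested at 40 weeks. The difference between pore and auxiliary genes was not itself tested.

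The alpha2delta subunits raise the number of calcium channels in the membrane. Cacna2d1, at rn6 chr4:15710415-16130842 (minus strand), had 8.5, 6.22, 4.19, 13.4 and 9.26 in MR 40 weeks, against 2.43, 3.06, 4.08, 2.82 and 2.6 in Sham. The lowest MR library was just above the highest Sham library, and the gene was higher (1.15, SE 0.23, adjusted p = 0.00125). Cacnb2, the main cardiac beta subunit, had 24.5, 35.8, 30.0, 40.4 and 30.5 in MR 40 weeks, against 25, 18.6, 17.5, 25.2 and 23.5 in Sham. Replicate 1 of MR lay within the Sham range, and the gene was higher (0.53, SE 0.15, adjusted p = 0.0119). Cacna2d2 averaged 10.1 ± 2.25 in MR and 6.42 ± 1.67 in Sham and was higher (0.58 (adjusted p = 0.0206)), though not without replicate 1 of MR (adjusted p = 0.0551). Cacnb3 averaged 2.07 ± 0.614 in MR and 2.77 ± 0.873 in Sham and did not pass (-0.29 (adjusted p = 0.21)).

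The CLC family holds membrane chloride channels and chloride-proton exchangers of endosomes and lysosomes. Clcn3, an endosomal exchanger at rn6 chr16:32449116-32519151 (plus strand), had 17.6, 22.4, 14, 30.0 and 22.8 in MR 40 weeks, against 14.9, 9.74, 5.1, 7.4 and 8.26 in Sham. Replicate 1 of Sham reached into the MR range, and the gene was higher (1.18, SE 0.24, adjusted p = 0.00137). Clcn4, the closest relative of Clcn3 among these genes, averaged 15.1 ± 3.69 in MR and 10.3 ± 2.49 in Sham and was higher (0.51 (adjusted p = 0.0332)), a call lost without any 1 of replicates 2, 4 or 5 of MR or 1 to 3 of Sham (adjusted p 0.0550 to 0.0924). Clcn1, the skeletal muscle chloride channel, averaged 0.926 ± 0.405 in MR and 1.88 ± 0.614 in Sham and was lower (-0.57 (adjusted p = 0.0287)), a call lost without any 1 of replicates 1, 2 or 5 of MR or 1, 2, 3 or 5 of Sham (adjusted p 0.0502 to 0.0747). The Clcn1 call was also lost under median-ratio scaling, with edgeR and in a fit of all 24 libraries. Clcn2 (-0.23), Clcn6 (0.03) and Clcn7 (0.09) had log2 fold changes that did not pass, with adjusted p of 0.208 to 0.903.

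TRP channels are cation channels that respond to lipids, calcium, stretch or heat. With limma 3 of 6 tested were lower at 40 weeks and none higher, where 30.9% of all tested genes were lower and 16.3% higher. With edgeR and with DESeq2, 2 of 6 were lower, Trpm4 among them, and none was higher. Trpm4, a calcium-activated monovalent cation channel at rn6 chr1:101293300-101323188 (minus strand), had 13.6, 11.2, 14.5, 9.42 and 8.35 in MR 40 weeks, against 15.6, 25.5, 24.2, 15.2 and 20.0 in Sham. The groups did not overlap (-0.76, SE 0.18, adjusted p = 0.00391). Trpm7, a channel with a kinase domain, had 19.8, 14.6, 17.2, 25.6 and 21.1 in MR 40 weeks, against 35.3, 25.5, 25, 25 and 23 in Sham. Replicate 4 of MR fell within the Sham range, and the gene was lower (-0.43, SE 0.16, adjusted p = 0.0357), but not without any 1 of replicates 1 to 3 of MR or 1 or 2 of Sham (adjusted p 0.0546 to 0.103) nor under the rescaling. The Trpm7 call was also lost with edgeR, with DESeq2 and in a fit of all 24 libraries.

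The stretch- and osmosensitive Trpv4 averaged 1.3 ± 0.758 in MR and 1.8 ± 0.911 in Sham (-0.28 (adjusted p = 0.403)), and Trpv2 averaged 1.39 ± 0.39 in MR and 2.29 ± 1.08 in Sham (-0.42 (adjusted p = 0.0905)). Trpc1 averaged 6.97 ± 1.84 in MR and 5.87 ± 0.849 in Sham (0.19 (adjusted p = 0.384)), and none of these 3 passed. Trpm2, gated by ADP-ribose, was listed at 2 and 10 weeks only, with 1.3 ± 0.20 in MR and 0.912 ± 0.318 in Sham at 10 weeks. Trpc4ap, the non-channel member, averaged 63.3 ± 3.44 in MR and 58.7 ± 5.9 in Sham at 40 weeks (0.11 (adjusted p = 0.432)).

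Of the 57 tested genes, 13 (22.8%) had MR 40 week values that did not overlap with Sham, 7 above and 6 below, against 29.2% of all tested genes. The tables list no gene whose highest library is under 31 reads, and 5 tested channel genes (among them Kcna2, Kcne1, Kcnj2 and Kcnn1) reached 31 reads at 40 weeks in MR libraries only, of which 4 were called higher. Another 3 (Kcne2, Kcnmb4 and Kcnn4) reached it in Sham only, of which 2 were called lower. Among the 49 that reached it in both groups, 13 were higher and 10 lower, where 15.8% and 31% of 9771 such genes were.

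At 2 weeks an unadjusted p under 0.05 was found for 3 of 56 channel genes (5.36%), against 5.47% of all genes, and the smallest adjusted p was 0.449. That gene was Kcnj6, with 1.5, 2.21, 1.85 and 2.08 in MR 2 weeks, against 0.944, 1.1, 0.0528, 0.554 and 0.724 in Sham (0.83, SE 0.22). Without replicate 1 of MR 2 weeks its log2 fold change was 0.90 (limma, adjusted p = 0.456). Kcnj6 was the only channel gene whose groups did not overlap at 2 weeks, where 2.16% of all tested genes did not. Genes under 32 reads in their highest library were not listed at 2 weeks. Kcnj6 reached 32 reads in MR libraries only (54 at most), so it was listed only through the group where it was higher.

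The other genes with the smallest p values at 2 weeks overlapped between groups, and none passed. Trpv4 had 5.31, 1.76, 2.4 and 2.68 in MR 2 weeks, against 2.01, 3.08, 2.43, 0.609 and 1.34 in Sham (0.48 (adjusted p = 0.84)). Cacna2d1 had 5.93, 2.83, 4.89 and 3.4 in MR, against 2.6, 3.22, 4.22, 2.94 and 2.74 in Sham (0.32 (adjusted p = 0.84)). In both of these genes the highest value was replicate 1 of MR, without which the log2 fold change was 0.24 for Trpv4 and 0.17 for Cacna2d1. Below Sham, Scn1a had 12.4, 6.71, 7.06 and 10.6 in MR 2 weeks, against 12.2, 14.6, 14.7, 15 and 12.2 in Sham (-0.57 (adjusted p = 0.734)). Kcnj8 had 12.9, 20.5, 20.8 and 20.3 in MR, against 15.8, 30.8, 23.4, 30.9 and 32.1 in Sham (-0.47 (adjusted p = 0.84)). Without replicate 1 of MR the differences were -0.71 for Scn1a and -0.32 for Kcnj8. Each of these pairs of groups shared part of its range.

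Kcna4 encodes Kv1.4, the pore of the slow part of the transient outward current, and was among the 3 lower genes with the smallest p at 2, 10 and 20 weeks. It had 0.241, 1.52, 0.649 and 0.978 in MR 2 weeks, against 1.53, 0.967, 1.53, 1.99 and 2.12 in Sham (-0.54 (adjusted p = 0.84)), and without replicate 1 of MR the difference was -0.36. In MR 10 weeks it had 0.21, 0.416, 0.14, 0.211 and 1.37, against 1.46, 0.94, 1.53, 1.91 and 2.06 in Sham (-0.85 (adjusted p = 0.167)). In MR 20 weeks it had 0.698, 0.768, 0.989, 1.35 and 0.579, against 1.41, 0.916, 1.5, 1.86 and 1.99 in Sham (-0.43 (adjusted p = 0.454)). None of the 3 differences passed, the comparisons share their Sham libraries, and at 40 weeks the averages were 1.95 ± 0.822 in MR and 1.55 ± 0.438 in Sham (0.19 (adjusted p = 0.446)). At 20 weeks Kcna4 reached the 31 reads needed for listing in Sham libraries only (41 at most).

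At 10 weeks 11 of 58 channel genes (19%) had an unadjusted p under 0.05, against 12% of all genes, and the smallest adjusted p was 0.109. Kcnj14 had 7.64, 6.43, 8.01, 11.3 and 6.32 in MR 10 weeks, against 2.24, 5.37, 4.91, 4.18 and 2.67 in Sham, without overlap (0.90 (adjusted p = 0.109)). Kcnn3 had 0.378, 0.786, 0.559, 0.422 and 0.982 in MR, against 1.18, 1.61, 1.16, 1.96 and 1.21 in Sham, also without overlap (-0.58 (adjusted p = 0.223)). Kcnj14 and Kcnn3 were the 2 channel genes without overlap at 10 weeks, where 2.45% of all tested genes had none. Genes under 32 reads in their highest library were not listed at 10 weeks. Kcnn3 reached 32 reads in Sham libraries only (37 at most), so it was listed only through the group where it was higher.

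Calcium pores were also among the genes with the smallest p at 10 weeks. Cacna1a had 40.3, 39.8, 17.1, 26 and 24.6 in MR 10 weeks, against 18, 17.1, 22.3, 6.89 and 17.9 in Sham (0.83 (adjusted p = 0.258)). Cacna1h had 27, 16.9, 37.8, 29.7 and 13.9 in MR, against 9.24, 19, 16.5, 19.7 and 11.4 in Sham (0.66 (adjusted p = 0.33)). Kcnk2 had 3.86, 2.27, 3.82, 1.21 and 3.93 in MR, against 4.59, 3.54, 4.38, 9.96 and 7.76 in Sham (-0.79 (adjusted p = 0.267)). The groups overlapped in all 3 genes and none passed.

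At 20 weeks 9 of 56 channel genes (16.1%) had an unadjusted p under 0.05, against 9.49% of all genes. Cacna1a had 32.4, 28.1, 22.7, 16.6 and 22.7 in MR, against 17.4, 16.6, 21.9, 6.73 and 17.3 in Sham (0.64 (adjusted p = 0.436)). Kcne1 had 1.63, 1.18, 1.51, 3.59 and 0.386 in MR, against 0.811, 0.654, 0.0517, 0.466 and 0.825 in Sham (0.69 (adjusted p = 0.436)). In each of these genes, 1 of the 5 MR libraries lay inside the Sham range and the others above it. Genes under 31 reads in their highest library were not listed at 20 weeks. Kcne1 reached 31 reads in MR libraries only (77 at most), so it was listed only through MR.

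Also lower in value at 20 weeks, without passing, was Clcn1 beside Kcna4. Clcn1 had 1.49, 0.666, 1.3, 0.979 and 0.869 in MR 20 weeks, against 1.89, 2.49, 2.17, 0.828 and 1.94 in Sham (-0.46 (adjusted p = 0.48)). No channel gene had separate groups at 20 weeks, where 1.8% of all tested genes did.

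The contrasts between MR times came from a limma fit of all 24 libraries on a common scale, with 57 channel genes tested. Sham libraries are in that fit, where they enter the scaling and the estimate of spread, and the MR 40 week libraries are those of the comparison above. In MR 40 weeks 15 channel genes were higher and 3 lower than in MR 20 weeks, where 21.3% of all 9984 tested genes were higher and 17.6% lower. On the common scale Cacna2d1 averaged 9.37 ± 3.97 in MR 40 weeks and 2.67 ± 0.368 in MR 20 weeks (1.41, SE 0.24, adjusted p = 0.000108). Kcnd2 averaged 6.12 ± 2.81 in MR 40 weeks and 1.65 ± 1.36 in MR 20 weeks (1.46, SE 0.30, adjusted p = 0.00052), and Clcn3 averaged 24.1 ± 7.2 in MR 40 weeks and 8.87 ± 3.18 in MR 20 weeks (1.34, SE 0.23, adjusted p = 8.59e-05). Other higher genes were Kcnn3, Kcnj12, Kcng2, Kcna7, Kcnk2, Kcna4, Cacnb2, Trpc4ap, Kcnq1, Clcn4 and Cacna2d2, with log2 fold changes of 0.28 (Trpc4ap) to 1.17 (Kcng2).

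Kcna4 and Kcnk2, which did not pass against Sham at 40 weeks, were higher in MR 40 weeks than in MR 20 weeks. Kcna4 averaged 2.19 ± 0.936 in MR 40 weeks and 0.88 ± 0.308 in MR 20 weeks (0.73, SE 0.21, adjusted p = 0.00916). Kcnk2 averaged 8.91 ± 2.02 in MR 40 weeks and 3.94 ± 1.56 in MR 20 weeks (1.04, SE 0.30, adjusted p = 0.00837). The lower genes were Scn7a (-0.59 (adjusted p = 0.0308)), Kcnd1 (-0.47 (adjusted p = 0.033)) and Kcnmb4 (-0.54 (adjusted p = 0.0345)), and without replicate 1 of MR 20 weeks the adjusted p of these 3 was 0.0522, 0.0879 and 0.136. Each of these 3 was lost without 5 to 7 of the 10 libraries in turn, and between 0 and 8 genes were lower when a library was left out. Cacna2d2 was lost without replicate 2 or 5 of MR 20 weeks or 1 or 5 of MR 40 weeks (adjusted p 0.0595 to 0.0698), and Clcn4 without replicate 4 or 5 of MR 40 weeks (adjusted p 0.0550 to 0.0601).

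Against MR 2 weeks, 17 channel genes were higher and 6 lower in MR 40 weeks, where 24.3% of all tested genes were higher and 21.3% lower. Scn4b averaged 157 ± 26.9 in MR 40 weeks and 51.1 ± 16.7 in MR 2 weeks (1.65, SE 0.28, adjusted p = 9.46e-05). Kcnj11 (0.90 (adjusted p = 0.000802)) was higher here too. Other higher genes were Kcng2, Clcn3, Kcna7, Kcnq1, Kcnj12, Trpc4ap, Kcnd2, Cacna2d1, Kcna4, Kcnk2, Cacnb2 and Clcn4.

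The 6 lower genes against MR 2 weeks were Kcnk6 (-0.57), Kcnd1 (-0.74), Kcnmb4 (-0.82), Kcnd3 (-1.14), Trpm4 (-0.68) and Trpv4 (-0.72), with adjusted p of 0.00102 to 0.0420. Without replicate 1 of MR 2 weeks, Kcnd3 gave -0.71 (adjusted p = 0.0657), Kcnk2 gave 0.75 (adjusted p = 0.0570) and Trpv4 gave -0.48 (adjusted p = 0.201), so these 3 calls were lost. Leaving that library out also lowered the calls over all genes, from 2428 higher and 2130 lower to 1948 and 1532. Trpv4 was also lost when replicate 3 or 4 of MR 2 weeks or replicate 3, 4 or 5 of MR 40 weeks was left out (adjusted p 0.0569 to 0.115).

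Between MR 10 weeks and MR 2 weeks the only channel gene that passed was Kcnn3, with 0.58 ± 0.242 in MR 10 weeks and 2.02 ± 0.70 in MR 2 weeks (-0.92, SE 0.18, adjusted p = 0.00627). With only these 2 groups in the fit, its adjusted p was 0.0640. Of all tested genes, 0.3% were higher and 1.07% lower. Between MR 20 weeks and MR 10 weeks no channel gene passed, and of all tested genes 0% were higher and 0.01% lower. There the smallest adjusted p among channel genes was 0.272 and 8 of 57 had an unadjusted p under 0.05, against 15.2% of all genes, and edgeR and DESeq2 called 0 as well.

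Of a panel of 30 cardiac channel genes drawn from the same families, 27 were tested at 40 weeks, of which 9 were higher and 4 lower, with a median log2 fold change of 0.39. For this panel and the related lists below, the shares over all tested genes were 16.3% higher and 30.9% lower. Of 40 other ion channel genes, 10 were higher and 6 lower, with Kcnk3 (2.68 (adjusted p = 0.00013)), Clic4 (1.91 (adjusted p = 0.000132)) and Kcnj3 (1.94 (adjusted p = 0.000207)) having the smallest p among the higher, and Clic1 (-1.12 (adjusted p = 0.000402)), Tpcn2 (-0.85 (adjusted p = 0.000544)) and Ano4 (-0.85 (adjusted p = 0.00176)) among the lower. Kcnk3 is a background potassium channel, Kcnj3 a G protein-gated inward rectifier, and Tpcn2 a lysosomal cation channel. The median log2 fold change of the 40 was -0.03.

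Of 44 channel partners, anchors and regulators, 15 were higher and 6 lower, with a median of 0.20. Camk2b, a subunit of the calcium and calmodulin dependent kinase that acts on several channels, averaged 5.57 ± 1.73 in MR and 0.857 ± 0.376 in Sham (1.81 (adjusted p = 0.00013)). Akap6, which anchors protein kinase A at the nuclear envelope and sarcoplasmic reticulum, averaged 93.1 ± 31 in MR and 21.4 ± 7.58 in Sham (2.07 (adjusted p = 0.000182)), and Gpd1l, which affects cardiac sodium current, averaged 15.2 ± 3.59 in MR and 3.15 ± 1.99 in Sham (2.06 (adjusted p = 0.000182)). The lower genes with the smallest p were the muscle caveolin Cav3 (-0.84 (adjusted p = 0.000608)), the calcium channel inhibitor Rem1 (-0.85 (adjusted p = 0.00106)) and the kinase Sgk1 (-0.74 (adjusted p = 0.00524)).

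Of 21 ion pump and exchanger genes, 8 were higher and 6 lower, with a median of 0.19. Among the higher were the membrane calcium pump Atp2b1 (0.80 (adjusted p = 0.00313)) and the bicarbonate cotransporter Slc4a4 (1.01 (adjusted p = 0.00493)). Lower were the mitochondrial sodium-calcium exchanger Slc8b1 (-0.93 (adjusted p = 0.000763)), the chloride cotransporter Slc12a2 (-0.62 (adjusted p = 0.0011)) and the sodium pump subunit Atp1b3 (-0.59 (adjusted p = 0.00221)). Of 8 gap junction genes, 3 were higher, Gja3 (1.66 (adjusted p = 0.000294)), Gja1 (0.78 (adjusted p = 0.00295)) and Tjp1 (0.41 (adjusted p = 0.0329)), and 3 lower, among them Gjc1 (-0.70 (adjusted p = 0.00359)) and Gja4 (-0.80 (adjusted p = 0.00668)). Gja1 encodes connexin 43, the main ventricular gap junction protein, and averaged 293 ± 39.9 in MR and 173 ± 45 in Sham.

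**Figure D4:**
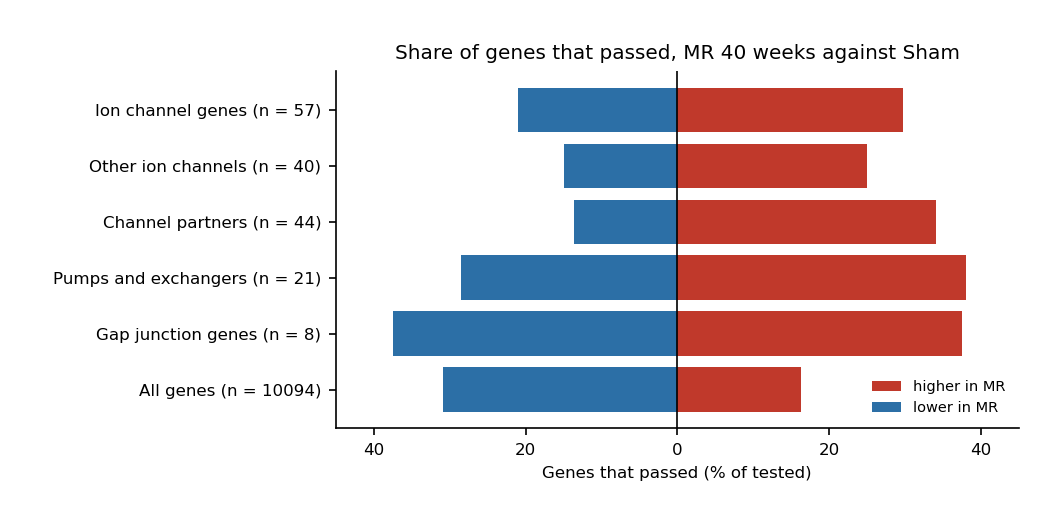
Share of tested genes (percent, from a centre line at 0) that were lower (left, blue) or higher (right, red) in MR 40 weeks against Sham, for the channel genes, 4 related lists and all tested genes. Channel genes stood at 29.8% higher and 21.1% lower, against 16.3% higher and 30.9% lower for all genes.

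Markers of other cell types are given here for 40 weeks, where 16.3% of all tested genes were higher and 30.9% lower. The endothelial and adipocyte sums did not overlap between MR and Sham, while the other sums given here did. No sum was tested. The summed level of 10 endothelial markers was 707 to 972 in MR, against 973 to 1189 in Sham (1 higher, 5 lower of 10), and that of 10 macrophage markers was 59.5 to 142 in MR, against 106 to 210 in Sham (0 higher, 4 lower of 10). Conduction system markers, of which Shox2 was among those not listed, summed to 33.6 to 103 in MR and 28 to 41.2 in Sham, with 3 higher (Hcn4, Tbx5, Cntn2) and 1 lower (Gjc1) of 6 tested. Atrial markers, of which Sln and Bmp10 were not listed, summed to 176 to 1969 in MR and 164 to 629.6 in Sham, with 1 higher and 1 lower of 6. Adipocyte markers, with Adipoq, Plin1 and Lep not listed, summed to 184 to 308 in MR and 380 to 593 in Sham (0 higher, 2 lower of 4), and 8 RNA quality and stress genes to 506 to 1809 in MR and 646 to 1053 in Sham (1 higher, Hspa1b, and 0 lower of 8). Their part in the channel gene results was not tested.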

How the data were processed

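RNA of rat myocardium was sequenced in 24 libraries. The submitters' processing notes name Partek and the genome build rn6. The aligner, annotation, counting rule and strand setting are given in no source used here, so reads of overlapping or antisense genes and close paralogs may be shared. The authors deposited 4 tables of signal values (normalised gene counts), each with 1 MR time and the same 5 Sham libraries. Those values proved to be read counts divided by 1 factor per library: 97.4% to 97.5% lay within 0.1 read of a whole read once it was undone. Coordinates are as the tables give them, with no statement of whether the first base is 0 or 1.

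Members were found by symbol, and all 65 are in the RefSeq gene table. Genes with a mean of at least 1 in a table were tested with limma 3.58.1 in R 4.3.3 on log2(value + 1), with a mean trend, two-sided, and adjusted by Benjamini-Hochberg over all genes at 0.05. MR times were compared in 1 fit of all 24 libraries, rescaled by the median of ratios, over genes in all 4 tables. Alternatives were edgeR 4.0.16 and DESeq2 1.42.0 on recovered reads, other pseudocounts, filters, scalings, library weights and leaving out each library. The scripts were tested on simulated data.

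The members and lists were chosen with earlier results of these data known. Values in every library are given for genes of a cardiac channel panel that passed and for the 3 smallest p per direction and comparison with Sham, and up to 3 genes per direction are named from each related list. Results for some of these genes are not reported here, although the genes are in the counts. Which sequences, ratios and plotted genes to show was decided after seeing the values. Nothing states that libraries are separate animals, so p-values measure the spread between libraries.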

Additional observations from a re-analysis of the deposited data

Results flagged for a closer look

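Of 309 groups of libraries of a channel gene, 23 (7.44%) had a library far from the rest by Dixon's criterion, where chance gives about 1 in 20. Replicate 1 of MR 2 weeks accounted for 6 of them, with Kcnd3 at 94.5 (the next library had 32.3), Trpm7 at 44.5, Clcn7 at 16.9 and Scn3a at 7.49 above the other 3 libraries, and Scn4b at 26.6 and Kcnj8 at 12.9 below them. Replicate 3 of Sham accounted for 3, all above the rest: Trpv2 at 4.19, Scn4a at 3.16 and Kcnmb1 at 2.04.

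The other libraries far above their group were Kcnj14 at 17.1 in replicate 1 of MR 40 weeks, Scn3b at 3.16 in replicate 5 of MR 40 weeks, Clcn3 at 13.8 in replicate 5 of MR 20 weeks, Cacnb3 at 4.28 in replicate 1 of MR 20 weeks, and Kcnn4 at 1.61 and Scn4a at 2.19 in replicate 3 of MR 20 weeks. In MR 10 weeks they were Cacna1d at 2.74 and Trpv4 at 4.01 in replicate 4 and Kcna4 at 1.37 in replicate 5. In Sham they were Trpm7 at 35.3 and Kcng4 at 1.71 in replicate 1. Libraries far below were Kcne2 at 0.415 in replicate 5 of MR 40 weeks, Scn4b at 71.2 in replicate 1 of MR 20 weeks and Kcnk6 at 5.79 in replicate 3 of MR 2 weeks.

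For 6 channel genes the difference from Sham had opposite signs at 40 and 20 weeks and MR 40 weeks differed from MR 20 weeks (limma, adjusted p under the threshold). None of these genes passed against Sham at 20 weeks, and Kcnk2 and Kcna4 did not pass against Sham at 40 weeks either. The log2 differences between MR 40 weeks and MR 20 weeks were 1.46 for Kcnd2, 1.41 for Cacna2d1, 1.04 for Kcnk2, 0.77 for Kcnn3, 0.73 for Kcna4 and -0.59 for Scn7a. Against Sham they were 1.17 at 40 weeks and -0.15 at 20 weeks for Kcnd2, 1.15 and -0.11 for Cacna2d1, 0.42 and -0.47 for Kcnk2, 0.45 and -0.18 for Kcnn3, 0.19 and -0.43 for Kcna4, and -0.66 and 0.10 for Scn7a.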

How the results depend on the processing

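At 40 weeks against Sham, 17 of the 29 channel gene calls held under all alternatives that could be run for them and without each library, 9 were lost without at least 1 library and 3 only under another setting. No called gene changed sign. The count of higher genes was 14 to 19 and that of lower genes 8 to 12 when a library was left out, against 17 and 12 with all.

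Median-ratio scaling left 6 lower, edgeR 7 and the fit of all 24 libraries 7, against 12, and the higher counts were 22, 22 and 20. A mean of at least 10, which leaves 23 channel genes to test, gave 7 higher and 6 lower. DESeq2 gave 23 higher and 10 lower. Over the other settings (pseudocounts, no filter, library weights) the higher count was 17 to 18 and the lower 12 to 13.

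For MR 40 weeks against MR 20 weeks, 3 genes were lower, but 1 with a pseudocount of 4, 7 with library weights, 5 with edgeR, 5 with DESeq2 and 0 to 8 without a library. The higher count was 14 to 16 without a library. A mean of at least 10 gave 6 higher and 1 lower there, and 10 higher and 2 lower for MR 40 weeks against MR 2 weeks, where leaving out a library gave 17 to 20 higher and 4 to 7 lower. For MR 10 weeks against MR 2 weeks, library weights gave 2 higher, against 0 (5.39% of all genes were higher with these weights), and the 1 lower gene, Kcnn3, became 0 with a mean of at least 10 or with only the 2 groups in the fit. Library weights gave 1 higher gene for MR 20 weeks against MR 10 weeks, against 0 (4% of all genes). Beyond fewer genes or libraries in a fit, the cause was not tested.

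No paired analysis was possible because the labels give no replicate numbers shared between groups. Genes under about 31 reads in their highest library are not listed, and genes near that depth carry large counting error.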
